A study of Mus musculus and Homo sapiens with 43 samples.

Results

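The cytosolic tRNAs that carry small and aliphatic amino acids were followed with 16 of the 70 tRNA probes of the study. Membership went by probe name, as all probes beginning with Ala_, Gly_, Val_, Ile_, Pro_ or Met, while probes with the prefix m, read as mitochondrial, were left out. Alanine, glycine, valine, isoleucine and proline had 3 probes each and methionine had 1. Charged tRNA, which carries its amino acid, and total tRNA were each profiled in 3 libraries of mcf10a and 3 of HCC1806. The design text describes mcf10a as a non-transformed line with high LARS, the synthetase that charges tRNA with leucine, and HCC1806 as a breast cancer line with low LARS, although the cell line label reads breast cancer for both. HCC1806 had RPMI with serum, pyruvate and HEPES, whereas DMEM with serum is given as the medium of all cells, so the line and its medium cannot be told apart. The tables hold tRNA probes and no mRNA, so neither line was checked against marker genes.

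A tRNA reads codons through its anticodon, and tRNAs that carry the same amino acid with different anticodons are called isoacceptors. The first anticodon base faces the third codon base and is often modified. In the alanine, valine, isoleucine and proline tRNAs that start with A, this base is converted to inosine, and in many tRNAs that start with U the Elongator complex builds a side chain on it. Methionine has a single anticodon shared by the initiator tRNA, which starts every protein, and the elongator tRNA, which serves internal codons. Probe names give the amino acid and the anticodon in DNA letters, with T for U. The 4 probes with A first are Ala_AGC, Val_AAC, Ile_AAT and Pro_AGG. G comes first in Gly_GCC and Ile_GAT. C comes first in Ala_CGC, Gly_CCC, Val_CAC, Pro_CGG and Met_CAT, and T in Ala_TGC, Gly_TCC, Val_TAC, Ile_TAT and Pro_TGG. The anticodon is the only sequence of a probe used here, and since Met_CAT is a single probe, initiator and elongator methionine tRNA were not separated.

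Each value below is a log2 fold change of one line over the other, with its standard error (SE), from the authors' DESeq2 model. The sources used here do not name the numerator line, so values are given as negative (lower in the numerator line) or positive. Counts were scaled by size factors in each table, so lower may mean lower relative to the other probes and not in amount. The tables hold one value per probe and none per library, so the spread is known only as the SE. Nothing in the labels says whether the 3 libraries of a group came from separate cultures, and a p-value may therefore measure technical spread alone. The 16 probes held 44.5% of the mean normalized counts of all probes for charged tRNA and 39.3% for total tRNA. Their mean normalized counts in the authors' deposited table ran from 10086 (Gly_GCC) to 554398 (Gly_TCC) for charged tRNA. The same 2 probes were the ends for total tRNA, at 2647 and 112964 in the authors' deposited table. Counting alone, with 3 libraries per line of equal depth, would give an SE of 0.0016 to 0.0117 for charged tRNA, and the deposited SE was 18.7 to 113 times larger. For total tRNA the ratio was 8.82 to 51.9, so the reads counted were not what limited these probes.

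For most of these tRNAs no difference between the lines passed the test, and Gly_TCC was the 1 probe that passed in both measurements. For charged tRNA, 2 of the 16 passed at a DESeq2 adjusted p under 0.05 and both were negative, Gly_TCC and Val_TAC. Over all probes 20.3% passed in either direction and 13% on the negative side, and over the cytosolic probes 22% passed. For total tRNA, 1 of the 16 passed, Gly_TCC again on the negative side. There 20% of all probes passed in either direction, 7.69% on the negative side, and 20.4% of the cytosolic probes. The share of members that passed was thus below that of all probes in both tables, a difference that was not tested. The median of the 16 values was -0.01 for charged tRNA against 0.08 over the 50 cytosolic probes, and -0.14 against -0.07 for total tRNA. Of the 16, 14 lay within 0.5 of 0 in each table, and 8 were negative for charged and 11 for total tRNA.

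Glycine tRNAs did not move together. Gly_TCC, which reads glycine codons ending in A or G, stood at -0.64 in the authors' deposited table of charged tRNA (SE 0.18, DESeq2 adjusted p = 0.00238), a 1.56-fold difference with a 95% interval of 1.23 to 1.99. In the authors' deposited table of total tRNA it stood at -0.55 (SE 0.16, DESeq2 adjusted p = 0.0068), a 1.47-fold difference with an interval of 1.18 to 1.84. It had the highest mean count of all probes in the charged table and the second highest in the total table. Both other glycine probes lay on the opposite side in both tables. Gly_CCC, which reads glycine codons ending in G, stood in the authors' deposited table at 0.26 for charged tRNA (SE 0.15, adjusted p = 0.243). Its total value in the authors' deposited table was 0.44 (SE 0.17, adjusted p = 0.0534), just outside the threshold. Centred on the median of the cytosolic probes, that total value became 0.51 and passed (adjusted p = 0.0178), and over all alternatives its adjusted p ran from 0.0178 to 0.656. Gly_GCC, which reads codons ending in C or U, stood at 0.32 (SE 0.22) charged and 0.30 (SE 0.20) total in the authors' deposited table, with adjusted p of 0.333 and 0.254. It was the scarcest of the 16 probes in both tables.

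The distance between the glycine isoacceptors was tested directly, as a difference between 2 probes of one table with a normal test adjusted over all 49 pairs of cytosolic isoacceptors. For charged tRNA, Gly_CCC minus Gly_TCC came to 0.91 (SE 0.23, 95% interval 0.45 to 1.36, adjusted p = 0.00241), a 1.87-fold shift in their ratio between the lines. Gly_GCC minus Gly_TCC was 0.97 (SE 0.28, interval 0.41 to 1.52, adjusted p = 0.0103). Total tRNA gave 0.99 (SE 0.24, interval 0.52 to 1.46, adjusted p = 0.000786) for the first of these pairs and 0.86 (SE 0.26, interval 0.35 to 1.37, adjusted p = 0.0162) for the second. Both glycine pairs that include Gly_TCC thus passed in both tables, with shifts of 1.81 to 1.99-fold, when the errors of a pair are taken as independent. Within a table both pairs subtract the same Gly_TCC value, so they are not separate results. With an error correlation of -0.5, Gly_GCC against Gly_TCC no longer passed (adjusted p = 0.0832 charged and 0.114 total), whereas Gly_CCC against Gly_TCC did (adjusted p = 0.0351 and 0.0168). Over all alternatives, the adjusted p of the Gly_CCC pair ran from 1.11e-06 to 0.0351 charged and from 1.03e-07 to 0.0168 total. Gly_CCC and Gly_GCC differed by -0.06 charged (interval -0.58 to 0.46) and 0.13 total (interval -0.39 to 0.66), neither of which passed. Scaling between libraries cancels within such a pair. Of the members' 15 pairs, 2 passed in each table. Over all 49 pairs, 6 passed for charged tRNA (12.2%), a share close to that of the members, and 3 for total tRNA (6.12%). By the size of p, Gly_CCC against Gly_TCC ranked second of the 49 in each table, and by the size of the difference it ranked 4 for charged and 2 for total tRNA.

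The same contrast can be put as shares of the glycine counts. When each mean normalized count is divided between the lines by its fold change, Gly_TCC made up 73.7% of the 3 glycine probes' charged counts in the denominator line and 59.9% in the numerator line. For total tRNA these shares were 70.8% and 55%. Gly_CCC held the converse, with 25.3% and 38.5% of charged counts and 28% and 43.2% of total counts, while Gly_GCC held under 2% throughout. These are shares of counts and not of molecules, since how well each probe captures its tRNA is not known here. Whether a probe also captures a close relative was not tested.

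Valine tRNAs were all negative. Val_TAC, which reads valine codons ending in A or G, stood at -0.60 in the authors' deposited table of charged tRNA (SE 0.22, DESeq2 adjusted p = 0.0331), a 1.52-fold difference with a 95% interval of 1.12 to 2.05. This call was lost under a Holm adjustment (adjusted p = 0.376), and over all alternatives its adjusted p ran from 0.0127 to 0.376. In the authors' deposited table of total tRNA it had the lowest value of the 16, -0.71, but also a larger SE of 0.31, and did not pass (adjusted p = 0.076). Val_AAC stood in the authors' deposited table at -0.13 (SE 0.14) charged and -0.43 (SE 0.20) total, with adjusted p of 0.566 and 0.0994. Val_CAC, which reads the codon ending in G, stood at -0.13 (SE 0.15) and -0.07 (SE 0.27) in the authors' deposited table, with adjusted p of 0.566 and 0.889. Unlike glycine, no valine pair passed: the charged difference of Val_AAC minus Val_TAC was 0.47 (interval -0.04 to 0.99, adjusted p = 0.297) and of Val_CAC minus Val_TAC 0.47 (interval -0.05 to 0.99, adjusted p = 0.297). For total tRNA these were 0.28 (interval -0.44 to 1.00) and 0.64 (interval -0.17 to 1.45). The upper ends of these intervals reach the size seen for glycine, so a shift of that size within valine was not shown and could have been missed.

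Isoleucine tRNAs were likewise all negative, and none passed. Ile_AAT, the main isoleucine probe by count, stood in the authors' deposited table at -0.38 charged (SE 0.19, adjusted p = 0.128) and -0.27 total (SE 0.22, adjusted p = 0.358). The values of Ile_GAT in the authors' deposited table were -0.22 charged (SE 0.21, adjusted p = 0.526) and -0.47 total (SE 0.24, adjusted p = 0.151). Ile_TAT, which reads the rare isoleucine codon ending in A, had -0.13 charged and -0.22 total in the authors' deposited table (SE 0.19 and 0.20, adjusted p = 0.666 and 0.442). The 3 isoleucine probes lay within 0.26 of each other in each table, and no pair of them passed.

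The 6 alanine and proline probes all had positive values for charged tRNA, and none passed. Ala_AGC stood at 0.16 (SE 0.18), Ala_CGC at 0.01 (SE 0.18) and Ala_TGC at 0.13 (SE 0.20) in the authors' deposited table of charged tRNA, with adjusted p from 0.566 to 0.973. For total tRNA the authors' deposited table gave -0.26 (SE 0.25, adjusted p = 0.447), -0.44 (SE 0.24, adjusted p = 0.162) and 0.03 (SE 0.18, adjusted p = 0.94) in that order. In the authors' deposited table of charged tRNA, Pro_AGG stood at 0.29 (SE 0.18), Pro_CGG at 0.15 (SE 0.16) and Pro_TGG at 0.15 (SE 0.15), with adjusted p of 0.295, 0.566 and 0.526. For total tRNA the proline probes stood at -0.05 (SE 0.16), -0.06 (SE 0.11) and 0.23 (SE 0.16) in the authors' deposited table, with adjusted p of 0.885, 0.71 and 0.254. No alanine or proline pair passed in either table. The methionine probe Met_CAT stood in the authors' deposited table at -0.03 charged (SE 0.19, adjusted p = 0.914) and 0.16 total (SE 0.37, adjusted p = 0.815). Its 95% interval ran from -0.41 to 0.35 for charged tRNA and from -0.57 to 0.89 for total tRNA, where its SE was the widest of the 16.

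The probes that did not pass set limits on what could have been missed. For charged tRNA, the 95% intervals of the 14 such probes reached 0.75 in either direction at most (Gly_GCC), a 1.69-fold difference. The 15 such probes of the total table reached 1.32 (Val_TAC), a 2.5-fold difference. Intervals of 1 of the 14 and 3 of the 15 left out 0 before adjustment. Of the 15 isoacceptor pairs among the members, 13 did not pass in each table, with sizes up to 0.47 charged and 0.64 total. The half-widths of their 95% intervals were 0.40 to 0.55 and 0.38 to 0.81.

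Grouped by the first anticodon base, the probes with T held both charged calls. Their 5 values had a median of -0.13 and ran from -0.64 (Gly_TCC) to 0.15 (Pro_TGG), so the group was spread over both sides. Medians for charged tRNA were 0.02 for A, 0.01 for C and 0.05 for G, with 0 calls among these 11 probes. Over all cytosolic probes the charged calls were not limited to T: 4 of 16 passed with T first, 1 of 10 with A, 3 of 15 with C and 3 of 9 with G. The charged median of the 16 with T was -0.02. For total tRNA all 4 probes with A first were negative, between -0.43 and -0.05, with a median of -0.27. The other total medians were -0.22 for T, -0.06 for C and -0.08 for G. Over all cytosolic probes, members included, the total median was -0.03 for the 10 with A first and -0.26 for the 16 with T. It was -0.07 for the 15 with C and 0.22 for the 9 with G. Without the members, it was 0.31 for the 6 other probes with A first and -0.31 for the 11 others with T. Within its amino acid the probe with T first was the lowest for glycine and valine in both tables, but for total tRNA the highest for alanine, isoleucine and proline. No group of probes was tested, since probes are not replicates of the cells.

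Weighted by probe counts, which are not molecules, the amino acids stood in another order than by the median probe. The counts of each amino acid's probes, divided between the lines and summed, gave valine a log2 ratio of -0.39 charged (95% interval -0.64 to -0.14) and -0.46 total (interval -0.80 to -0.12). Glycine came to -0.34 charged (interval -0.59 to -0.10) and -0.19 total (interval -0.42 to 0.04), although its median probe stood at 0.26 and 0.30, because Gly_TCC holds most of the counts. Isoleucine came to -0.35 (interval -0.64 to -0.05) and -0.30 (interval -0.61 to 0.02). Proline came to 0.19 (interval 0.01 to 0.37) and 0.05 (interval -0.11 to 0.22), and alanine to 0.09 (interval -0.13 to 0.30) and -0.29 (interval -0.57 to -0.01). These intervals take the probes as independent, although the probes share their libraries, and errors that go the same way in several probes would widen them. They are also not adjusted for the number of amino acids, and the sums were added after the values were seen. An interval that leaves out 0 is therefore no test of an amino acid.

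Charged and total values of the members went largely the same way when both tables are read with the same numerator, which neither states. Of the 16, 7 were negative in both, 4 positive in both, 4 positive for charged and negative for total, and 1 (Met_CAT) the reverse. Across the 16 probes, which share their libraries and are not independent, Spearman's rho was 0.79. It was 0.66 over the 50 cytosolic probes. For no member did the difference between charged and total tRNA pass: charged minus total ran from -0.19 (Met_CAT) to 0.45 (Ala_CGC), with adjusted p of at least 0.793 over 69 probes by a normal test on the 2 deposited SE. At an unadjusted p under 0.05 there were 0 members as well, while 4.35% of all probes passed after adjustment. For Gly_TCC the charged minus total difference was -0.09 (95% interval -0.56 to 0.39), and for Val_TAC 0.11 (interval -0.64 to 0.86). With the sign of the total table turned, 3 members would pass, Gly_TCC at -1.20, Val_TAC at -1.32 and Gly_CCC at 0.70, so this comparison rests on the reading of the numerators. A change of charging shared by all probes may be removed by the scaling within each table.

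The enzymes that charge these tRNAs, and enzymes that modify a first anticodon base, were read in the mouse tables of the series. These tables come from another species and other cells. The first kind is 4T07 breast cancer cells with the hairpin shCtrl, shLars3 or shLars4, as polysome fractions and as ribosome footprints with mRNA, where the only footprint library is a pool with no group label. The second is PyMT tumors of C57BL/6J mice with Lars fl/wt or Lars wt, whose ribosome-bound mRNA was drawn by a tag (RiboTag). Both genotypes carry rpl22HA fl/wt, MMTV-Cre+ and MMTV-PyMT+, where the MMTV promoter drives expression mainly in mammary epithelium. Libraries numbered 3 per hairpin and polysome fraction, 2 of mRNA per hairpin, and 3 per RiboTag genotype. None of the 6 cognate synthetase genes (Aars, Gars, Vars, Iars, Eprs, Mars) passed in the polysome table, where 27.9% of genes passed and the groups and direction compared are not stated. The lowest p there was that of Mars, which charges methionine tRNA, at -0.56 in the authors' deposited table (SE 0.23, DESeq2 adjusted p = 0.0571), and 2 of the 6 had an unadjusted p under 0.05, as did 37.9% of all genes. Their median was -0.24, against -0.12 over all genes. For translational efficiency after Lars knockdown, 0 of 6 passed by xtail and 0 had an unadjusted p under 0.05, with 0.0508% of all genes past the threshold. The smallest p was that of Vars, which charges valine tRNA, at -0.26 (xtail adjusted p = 0.879) in the authors' deposited table. Their median was 0.02 in mRNA and -0.02 in footprints, against -0.01 in footprints over all genes. In RiboTag 0 of 6 passed by DESeq2, as did 0% of all genes, and 0 of the 6 and 1.19% of all genes had an unadjusted p under 0.05. All 6 lay on the positive side there, with Eprs, which charges proline and glutamate tRNA, highest at 0.52 (SE 0.43) in the authors' deposited table. The 6 had a median of 0.38, against -0.01 over all genes, and which genotype is the numerator was not established here.

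Enzymes of the first anticodon base, which need not act on the member tRNAs, were divided in the polysome table. Of 12 measured, 4 negative and 1 positive passed, where the shares of all genes that passed were 17.5% negative and 10.4% positive. Their median was -0.32, against -0.12 over all genes. The Elongator subunit genes Elp5 and Elp6 stood in the authors' deposited table at -0.80 (SE 0.19, DESeq2 adjusted p = 0.000257) and -0.75 (SE 0.18, DESeq2 adjusted p = 0.000532). Ctu2, whose product is part of the complex that thiolates U at this position, stood at -0.73 in the authors' deposited table (DESeq2 adjusted p = 0.000563). Adat2, a subunit of the deaminase that makes inosine, stood at -0.64 in the authors' deposited table (DESeq2 adjusted p = 0.0293). Alkbh8, which completes the side chain at U, was at 1.85 in the authors' deposited table (SE 0.32, DESeq2 adjusted p = 3.89e-07). Of 8 genes for factors that bring or place initiator tRNA, 4 negative and 0 positive passed, beside the same 17.5% and 10.4% of all genes, and the median was -0.46 against -0.12. The 4 were Denr (-1.09), Mcts1 (-1.02), Eif5b (-0.92) and Eif2s2 (-0.51) in the authors' deposited table. None of either list passed for efficiency or RiboTag, and 0 had an unadjusted p under 0.05 for RiboTag. For efficiency 1 gene of each list did, as did 6.35% of all genes. These were Ctu2 at -0.60 (xtail adjusted p = 0.772) and Mcts1 at 0.66 (xtail adjusted p = 0.775) in the authors' deposited table. The efficiency median was 0.01 for the first base list and 0.15 for the initiator list, against -0.01 over all genes. Of the 7 initiator genes measured there, 1 was negative. The kit named for these mRNA libraries is unstranded, so reads of a gene and of an antisense neighbour cannot be told apart.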

How the data were processed

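The rule for members uses probe names and no values, but the rule and the lists were chosen with earlier results of these data known. The 5 deposited files are comparison tables of the authors with no column per library. Per the file headers, 4 are DESeq2 results. Their mean normalized count is a signal that the authors obtained by dividing counts by size factors and averaging over libraries. The deposited log2 fold changes and SE come from the authors' model, as do the deposited Wald p-values and adjusted p-values. Per the file headers, xtail made the table of translational efficiency. Per the labels' protocols, tRNA came from a sodium acetate lysis with phenol chloroform, and charged tRNA profiling followed a published method. The submitters' processing notes list 2 aligners (STAR 2.5.2a and Bowtie2 2.4.1), HTSeq, featureCounts, SAMtools, DESeq2 and the mouse build mm10, without a role per library. The reference used for the human probes was not given in the sources used here.

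The threshold for probes and genes was a deposited adjusted p under 0.05. The deposited adjusted p equalled a Benjamini-Hochberg adjustment over the probes that have one (69 charged, 65 total). Differences between isoacceptors, and between charged and total values, were divided by the root of the summed squared SE, which takes the errors as independent, and tested with a two-sided normal test and Benjamini-Hochberg adjustment over all pairs or probes of the table. Intervals are 1.96 SE. Every member was named, and enzymes that passed or had the smallest p, except for the first base and initiator lists in RiboTag. Tests were checked on simulated data with independent errors, a check that does not cover correlated errors. Counts were divided between lines as if both groups weighed equally. Python 3.11.15, numpy 2.4.6, pandas 2.3.3 and scipy 1.17.1 were used.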

Additional observations from a re-analysis of the deposited data

How the results depend on the processing

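No paired analysis was possible because the tables hold no value per library; for the same reason no replicate could be left out. Gly_TCC passed in both tables under Holm adjustment and with centring on the cytosolic median, with adjusted p of 0.000457 to 0.019 charged and 0.0178 to 0.0468 total. Its isoacceptor pairs passed under Holm adjustment, with adjusted p of at most 0.0296 charged and 0.0465 total. An error correlation of -0.5, added after seeing the data, left 1 of the 2 called member pairs in each table, since it widens the SE of a difference. An error correlation of 0.5 narrows it, and minimum counts of 10 or 1000 removed no member, so these say little about the stability of the calls. For pairs and charging differences that did not pass, the narrower SE is the stricter check, and none of the members' passed with it. By the normal test, the charged differences of Val_AAC and Val_CAC from Val_TAC then had an adjusted p of 0.0678. The smallest adjusted p of a member's charging difference was then 0.215 (Ala_CGC). Member probes called for charged tRNA fell from 2 to 1 under Holm adjustment. For total tRNA they went from 1 to 4 at a threshold of 0.1 and to 2 with centring. Members called for charging went from 0 to 3 with the total table turned.

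Turned, these differences changed sign: -0.10 for Ala_AGC, -0.43 for Ala_CGC, 0.70 for Gly_CCC, -0.68 for Ile_GAT, -0.34 for Ile_TAT, 0.13 for Met_CAT, 0.39 for Pro_TGG, -0.56 for Val_AAC and -1.32 for Val_TAC. Centring turned values near 0 that did not pass: -0.069 for charged Ala_CGC, 0.017 and 0.0071 for total Pro_AGG and Pro_CGG, and charging differences of -0.044 for Ala_TGC, -0.13 for Gly_GCC, -0.061 for Ile_TAT and -0.037 for Val_TAC. The glycine median moved to -0.018 charged and 0.015 total as a mean weighted by SE, and to -0.34 and -0.19 as a ratio of summed counts, which also took charged valine to -0.39.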

Other observations

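As context for the probe names, the RefSeq annotation of the mouse assembly GRCm38.p6 lists 430 tRNA genes. Symbols for the same amino acid and anticodon matched 15 of the 16 probes, with 1 to 16 genes each and 130 in all. Glycine had 7 genes for the anticodon of Gly_TCC, 6 for Gly_CCC and 14 for Gly_GCC, although Gly_GCC had the lowest mean count of the 16 probes in the human lines. Valine had 3 for Val_TAC, 8 for Val_AAC and 11 for Val_CAC, and Val_TAC had the highest mean count of these probes in both tables. No symbol matched Ile_GAT, and 1 matched Ile_TAT. Mouse gene numbers and human probe counts come from different species, and no relation between them was tested.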
